A study of Danio rerio with 8 samples.

Results

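The wild type tail muscle of the zebrafish was described from 3 bulk RNA sequencing libraries, chosen by their labels as the wild type (runx2b+/+) columns of the count table. They are 3 of the 6 bulk libraries and 3 of the 8 samples of a series that also holds 3 runx2b-/- bulk libraries and 2 single-cell samples, none of which was used here. All 3 came from a Tg (sp7/eGFP) line, in which the promoter of the osteoblast gene sp7 drives a green fluorescent protein, at 60 days post fertilization. The tissue was muscle of the tail, dissected along with its intermuscular bones, frozen on dry ice and extracted with Trizol. A stranded TruSeq mRNA kit, which selects polyadenylated RNA, was used to prepare them. The labels do not say whether a library is 1 fish or a pool, nor the sex of the fish, so the spread given below is the spread between these libraries and may in part be technical. They are called libraries 1, 2 and 3 after their labelled replicate numbers, which give no order.

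The tail of a zebrafish is mostly white muscle, made of fast fibres that run on glycolysis and phosphocreatine, with a thin superficial band of slow, mitochondria-rich fibres. The muscle segments are separated by myosepta, sheets of connective tissue in which tendon cells sit and in which intermuscular bones form by ossification without a cartilage model. Teleost fish carry many duplicated genes, so that a muscle protein is often encoded by several near copies (paralogs), each of which may be used in a different fibre type or stage of life.

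Total counts were 19910269, 20482003 and 19890668 in libraries 1, 2 and 3, and 3 counts, the number taken as the limit of a count of 0, corresponded to 0.146 to 0.151 CPM (counts scaled to the same total in each library). Levels are given as TPM, the usual length-corrected unit, meaning counts divided by the length of the gene's listed exons and scaled to the same sum in each library. Of 25279 listed genes, 1215 had no count in any of the 3 libraries, 18732 had a count in each, and 9457 reached at least 1 TPM in each. The 3 libraries differed by more than counting error in each pair, with a chi-square over its degrees of freedom of 23.6 to 51.9. Over the 4558 genes of at least 5 TPM and 50 counts in the highest library, the median log2 TPM of library 3 lay 0.13 below that of library 2 and 0.09 below that of library 1. Ratios were therefore also taken after TMM scaling (the trimmed mean of M-values of edgeR), which brought these medians to within 0.01. Values printed for the 3 libraries are in TPM, and their order was not always the same after TMM scaling. A direction is given for both scales only where this is stated.

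A small number of contractile and mitochondrial genes held much of the transcript pool. The 10 most abundant genes held 43.0%, 40.1% and 41.4% of TPM in libraries 1, 2 and 3, and 50% of TPM was reached with 16, 18 and 17 genes. Sarcomere genes (thick filament, thin filament, Z-disc and titin, 114 genes) held 30.3%, 32.9% and 37.7% of TPM, a mean of 33.6% ± 3.73 (SD, n = 3). On counts, which are not divided by length, the same genes held 57.5% ± 3.45 (SD, n = 3). Within the sarcomere, thick filament genes held 15.9% ± 1.98 of TPM, thin filament genes 17.08% ± 1.74, and Z-disc and titin genes 0.632% ± 0.0303 (SD, n = 3 each). Both filament classes were lowest in library 1 and highest in library 3.

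The highest nuclear gene was myhc4, a fast myosin heavy chain, the motor of the thick filament. It had 43992, 54936 and 68437 TPM in libraries 1, 2 and 3. Its model lies on chromosome 5, from 31621602 to 31633709 in the table's coordinates, next to myha, from 31646719 to 31657163, which had 8721, 13086 and 11596 TPM. The regulatory light chain of fast fibres, mylpfa, was at 51491, 49465 and 54059 TPM, and the fast essential light chain mylz3 at 10998, 11480 and 13521 TPM. mylpfa was closer to constant among the libraries than myhc4, with a coefficient of variation (CV) of 4.46% against 21.9%.

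On the thin filament side, tnnt3b, a fast troponin T that anchors the troponin complex to tropomyosin, had 47919, 51749 and 59240 TPM. The actin gene actc1b, named for its cardiac counterpart in mammals, had 33534, 35715 and 45030 TPM, and the tropomyosin gene tpma had 29275, 33345 and 40167 TPM. In all these genes library 3 was the highest on both scales. Actin and tropomyosin, which lie along each other in the filament, varied together. Striated actin over tropomyosin was 1.07 ± 0.0440 (SD, n = 3) in TPM, while the CV of actc1b alone was 16.03% and that of tpma 16.1%. Troponin I over troponin C was 1.11, 1.28 and 1.26. Troponin T over troponin C was 3.71 ± 0.250 (SD, n = 3), so the 3 troponin subunits were not at equal level on this scale.

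The fuel-buffering genes of fast muscle were also abundant. Creatine kinase, adenylate kinase and related genes (16 genes) held 3.26%, 4.05% and 3.91% of TPM. The leading members were ckma and ckmb, muscle creatine kinases that regenerate ATP from phosphocreatine, and ak1, an adenylate kinase. ckma had 11255, 15187 and 14500 TPM and ak1 had 10234, 11904 and 11149 TPM. Both genes, and the class as a whole, were highest in library 2 in TPM but in library 3 after TMM scaling. nme2b.2, a nucleoside diphosphate kinase, was also among the 20 most abundant genes, with 12161 ± 772 TPM (SD, n = 3). Genes of glycolysis and glycogen use (43 genes) held less, 1.54% ± 0.155 of TPM (SD, n = 3), led by gapdh at 2859, 4347 and 3635 TPM and eno3, the muscle enolase, at 2599, 3639 and 3147 TPM. Calcium-handling genes held 5.33% ± 0.612 of TPM (SD, n = 3), and parvalbumins, soluble calcium buffers that speed relaxation, made up 4.45% ± 0.525 of TPM (SD, n = 3).

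**Figure D1:**
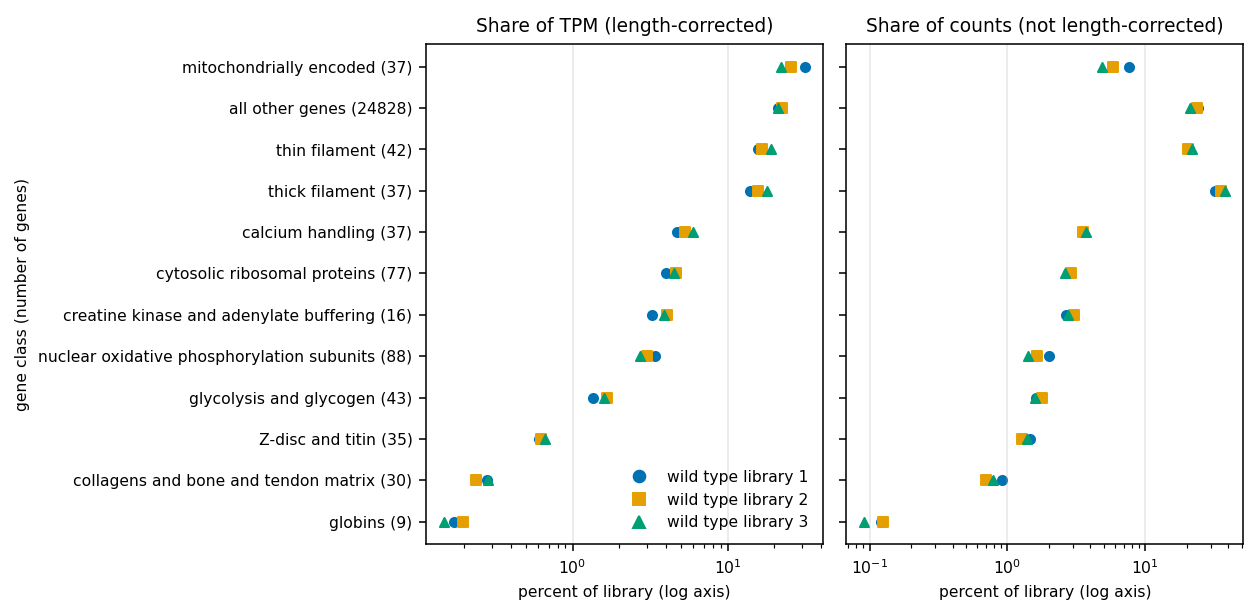
Share of each wild type library held by 12 gene classes, as percent of TPM on the left and percent of counts on the right, both on log axes, with 1 point per library. The mitochondrially encoded class held 31.4%, 25.5% and 22.01% of TPM but a mean of 6.15% of counts, and the thick and thin filament classes were highest in library 3 in both panels.

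Genes encoded in the mitochondrial genome held 31.4%, 25.5% and 22.01% of TPM in libraries 1, 2 and 3, against 6.15% ± 1.42 of counts (SD, n = 3). The 13 protein-coding genes, which encode core subunits of the respiratory chain and of ATP synthase, held 25.7%, 19.97% and 16.7% of TPM. Most of that difference among libraries lay in both ATP synthase genes. mt-atp8, a model of 165 bases, was the highest of all genes at 122324, 84089 and 63149 TPM, and mt-atp6, with which it overlaps by a few bases, had 51737, 36525 and 28261 TPM. Together they held 17.4%, 12.1% and 9.14% of TPM, and the other mitochondrial genes held 14.0%, 13.4% and 12.9%. The cytochrome oxidase genes were close to equal among the libraries, with mt-co1 at 8780, 8789 and 8320 TPM, mt-co2 at 12052, 12558 and 11870 TPM and mt-co3 at 8907, 9103 and 8696 TPM. The values of mt-atp8 depend on its short model. A level per length is least certain for so short a model, and no source used here gives the read length. The same holds for AC024175.9 and AC024175.3, mitochondrial models of 71 and 70 bases among the 20 most abundant genes. Their means were 14634 and 13433 TPM. The 24 mitochondrial genes outside the 13 protein-coding ones held 5.68%, 5.48% and 5.29% of TPM. mt-nd6, also among the 20, had 14100, 15181 and 15895 TPM.

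The nuclear subunits of oxidative phosphorylation (88 genes) held 3.38%, 3.01% and 2.74% of TPM. Of the 84 that passed the level filter, 67 were highest in library 1 in TPM and 68 after TMM scaling. Of all 4558 genes past the filter, 1769 were highest there in TPM. The matching number over all genes was not taken after TMM scaling. Counts of list members highest in a library after TMM scaling, here and below, therefore have no share of all genes beside them. None of the 84 differed by 2-fold among libraries, against 505 of the 4558 genes past the filter (11.1%). ppargc1a, a coactivator known to drive mitochondrial genes in muscle, had 9.40, 6.49 and 3.36 TPM. The 77 cytosolic ribosomal protein genes held 4.01%, 4.65% and 4.51% of TPM, with a median level per gene of 421 TPM. None of the 77 differed by 2-fold either. In TPM 54 of them were highest in library 2, against 1776 of all 4558 genes past the filter. After TMM scaling 70 were highest in library 3, so the order of libraries 2 and 3 depends on the scale. Library 1 was the highest for only 2 of the 77 on each scale, and its share of TPM was the lowest.

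In each sarcomere family described here 1 paralog led in the 3 libraries. Among fast myosin heavy chains, myhc4 held 68.2%, 66.1% and 70.32% of the family's TPM, myha 13.7% ± 1.92, myhz1.1 10.99% ± 0.303 and myhz2 3.79% ± 0.382 (SD, n = 3 each). The model of myhz1.1 has parts on more than 1 chromosome and 11897 bases, against 5989 for myhc4, so its level per length is uncertain, and by counts it held 19.7% of the family. The reads of these near-identical copies may have been shared out or dropped by the counting, whose rules no source used here gives, and this holds for each family described below.

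Actin, tropomyosin and troponin T were each dominated by a single gene. actc1b held 96.9% ± 0.978 of striated actin TPM, tpma 93.6% ± 2.12 of tropomyosin and tnnt3b 90.2% ± 2.87 of troponin T (SD, n = 3 each). In the fast troponin I family, whose proteins bind actin and with tropomyosin keep myosin off it at rest, tnni2a.3 held 78.1% ± 3.38, tnni2b.2 held 12.0% ± 2.598 and tnni2a.4 held 9.63% ± 1.99 (SD, n = 3 each). The calcium sensor troponin C was split between fast tnnc2, with 71.4%, 77.6% and 82.5%, and slow-type tnnc1b, with 28.6%, 22.4% and 17.5%. Among light chains mylpfa held 73.5% ± 0.809, mylz3 17.03% ± 1.16 and myl1 5.39% ± 0.462 (SD, n = 3 each).

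Parvalbumin was spread over 4 genes. pvalb4 held 51.4% ± 2.01, pvalb3 23.7% ± 1.39, pvalb1 18.003% ± 1.26 and pvalb2 6.51% ± 0.249 (SD, n = 3 each). Creatine kinase was shared by ckma with 53.2% ± 1.39 and ckmb with 39.5% ± 0.315, and ckma over ckmb was 1.31, 1.39 and 1.34. Calcium release channels were likewise shared, with ryr3 at 54.0% ± 1.92 and ryr1b at 42.4% ± 0.437, whereas the pump that returns calcium to its store was almost wholly atp2a1l, at 91.0% ± 3.06 (SD, n = 3 each). The store's calcium-binding protein calsequestrin was mainly casq1a, at 78.6%, 72.1% and 76.0%. Of the alpha-actinins, which cross-link actin at the Z-disc, actn3a held 70.6% ± 0.484 and actn3b 28.9% ± 0.594 (SD, n = 3 each). Both titin genes were used in similar amounts, ttn.2 with 54.8% ± 1.55 and ttn.1 with 45.2% ± 1.55, but they overlap each other in the table.

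Enzymes of glycolysis were mostly carried by 1 muscle paralog each. pgam2 held 98.9% ± 0.490 of phosphoglycerate mutase, pkmb 97.5% ± 0.316 of pyruvate kinase, pygma 97.5% ± 0.965 of glycogen phosphorylase, eno3 96.2% ± 0.418 of enolase and gpib 95.1% ± 0.892 of glucose-6-phosphate isomerase (SD, n = 3 each). Aldolase and lactate dehydrogenase were less one-sided, with aldoaa at 76.9% ± 0.313 and ldha at 80.9% ± 2.37 (SD, n = 3 each).

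**Figure D2:**
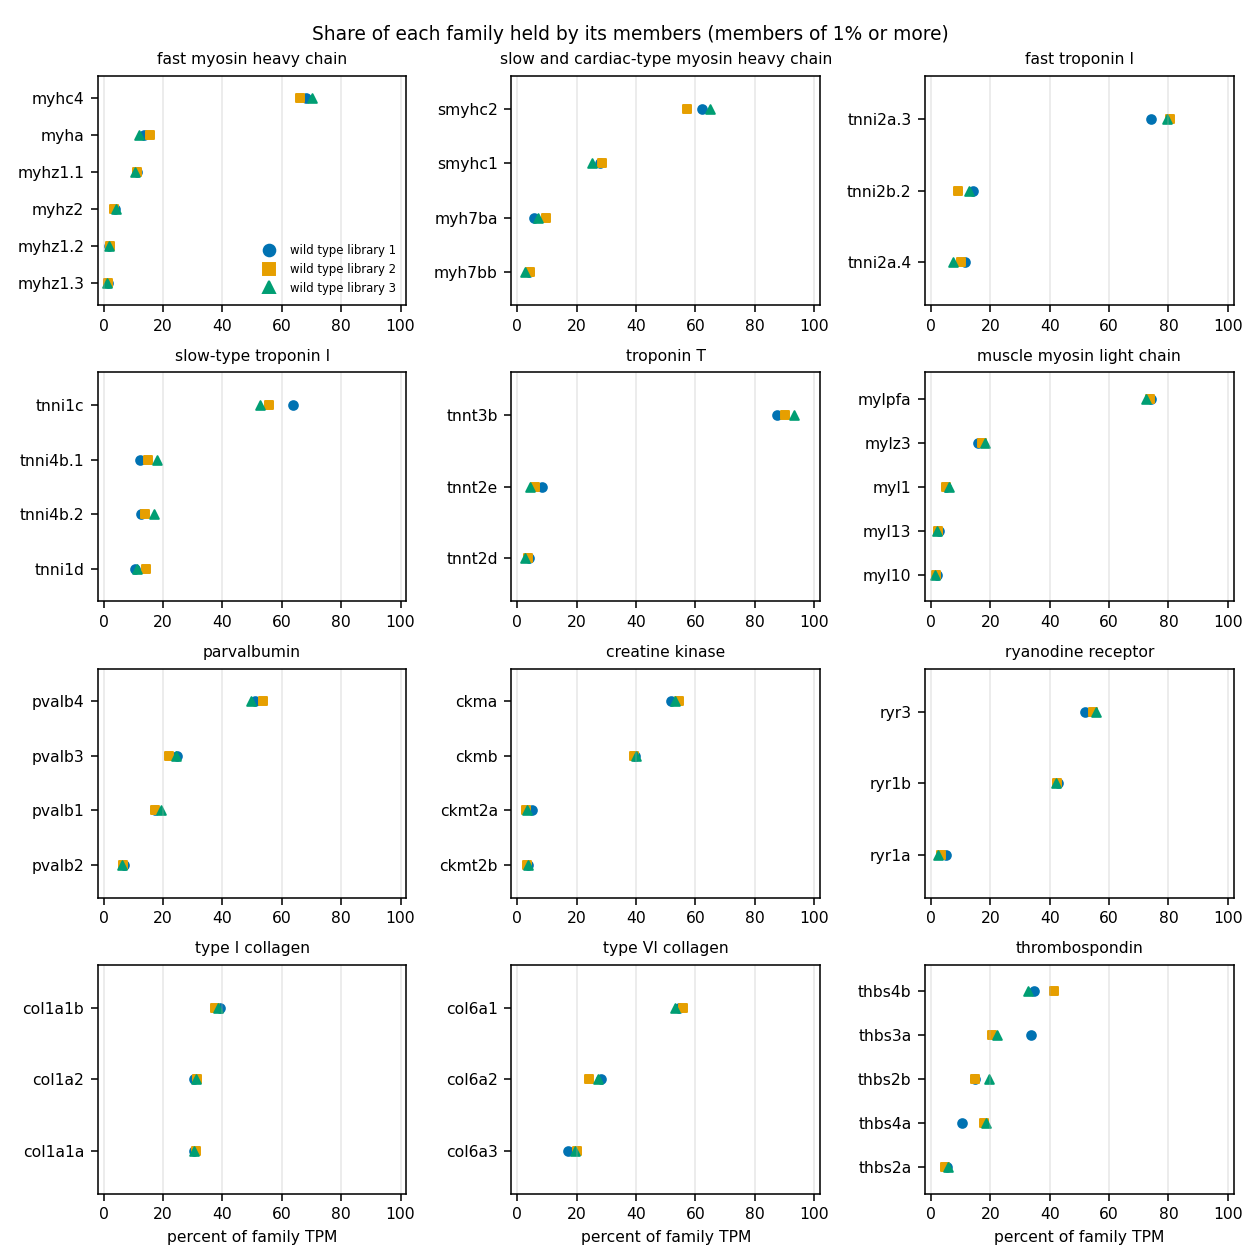
Percent of the family's summed TPM held by each paralog of at least 1%, in 12 families, with 1 point per wild type library. myhc4, tnni2a.3, tnnt3b and mylpfa each hold most of their family in the 3 libraries, while creatine kinase, ryanodine receptor and type I collagen transcripts are shared among members at nearly equal shares from library to library.

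Slow-fibre genes were present at lower level and differed among libraries together. The slow fibre list (26 of 29 genes matched) summed to 24234, 18324 and 15399 TPM in libraries 1, 2 and 3, against 246159, 275092 and 312628 TPM for the 30 fast fibre genes. The fast sum over the slow sum was therefore 10.2, 15.0 and 20.3. Of 20 slow-list genes that passed the level filter, 16 were highest in library 1 both in TPM and after TMM scaling. Of 28 such fast-list genes, 22 were highest in library 3 after TMM scaling and 20 in TPM. Of all 4558 genes past the filter, 1769 were highest in library 1 and 1013 in library 3 in TPM. These numbers over all genes were not taken after TMM scaling. In a bulk sample more fibres of a type and more RNA per fibre cannot be told apart.

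In TPM 16 of these 20 slow-list genes were lowest in library 3, against 2112 of all 4558 genes past the filter. Highest in library 1 and lowest in library 3 in TPM were 15 of the 20. This order was not counted over all genes, nor after TMM scaling, so the 15 have no share of all genes beside them. tnnc1b had 4540, 3433 and 2820 TPM, tnnt2e, listed as a slow troponin T, had 4541, 3501 and 2646 TPM, and mb, the oxygen store myoglobin, had 3397, 2067 and 1966 TPM. tnni1c, the leading slow-type troponin I, had 1445, 901 and 727 TPM and held 63.8%, 55.6% and 52.6% of its family. Of slow and cardiac-type myosin heavy chains, smyhc2 held 61.4% ± 4.004, smyhc1 27.1% ± 1.81 and myh7ba 7.38% ± 2.04 (SD, n = 3 each). Neither smyhc2, at 786, 554 and 575 TPM, nor myh7ba, at 71.0, 93.5 and 61.3 TPM, kept that order. smyhc1 and smyhc2 overlap in the table and smyhc2 has a model of 11567 bases, so their split is uncertain. Fast over slow and cardiac-type heavy chain was 51.1, 85.5 and 110 in TPM.

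Over all genes, symbols that differ only in a final a or b were taken as a simple sign of a paralog pair, which may include pairs that are not duplicates. Of 2347 such pairs, 665 summed to at least 10 TPM. In 224 of them (33.7%) 1 copy held at least 90% of the pair's TPM, the a copy in 122 and the b copy in 102. Both copies lay between 40% and 60% in 92 pairs. The shares had a median SD of 2.502 percentage points among the 3 libraries. Their range was under 5 points in 341 of the 665 pairs and over 10 points in 131. Only 46 of the 665 pairs had a different higher copy in different libraries.

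The most abundant pairs included several in which 1 copy held nearly all of the pair's TPM. tnnt3b, mylpfa, actc1b and tnnc1b each held over 99.9% of their pairs, and myha held 99.8% ± 0.199 (SD, n = 3). A small share is not silence in so abundant a pair, as myhb, the copy of myha, had 9.55, 12.9 and 52.2 TPM. Among pairs of at least 100 TPM in sum, the nearest to equal use included hadhaa and hadhab, subunits of mitochondrial fatty acid oxidation, with 49.5% ± 2.13 in the a copy, and col1a1a and col1a1b, with 44.4% ± 0.731 in the a copy (SD, n = 3 each). ckmt2a and ckmt2b, the mitochondrial creatine kinases, had 58.2%, 47.8% and 47.3% in the a copy. The pair atpif1a and atpif1b, inhibitors of mitochondrial ATP synthase, had 62.4%, 65.5% and 67.0% in the a copy.

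Some pairs differed in share between libraries. txnipa, a thioredoxin-binding arrestin that limits glucose uptake, held 34.7%, 48.4% and 65.8% of its pair in libraries 1, 2 and 3. Its level was 43.1, 76.2 and 134 TPM, while txnipb was at 81.0, 81.4 and 69.6 TPM. pdk2a held 38.0%, 12.9% and 7.22% of the pdk2 pair, whose other copy pdk2b is among the most variable genes. Both copies were highest in library 3, with pdk2a at 8.64, 6.93 and 26.4 TPM and pdk2b at 14.1, 46.7 and 340 TPM.

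Bone genes other than sparc were mostly detected at low level. The osteoblast and mineralized bone list (28 of 33 genes matched) summed to 357, 304 and 342 TPM, but sparc, the collagen-binding matrix protein osteonectin that fibroblasts also make, held 76.9% ± 3.04 of it (SD, n = 3). Without sparc the sum was 70.296, 73.1 and 87.4 TPM. sparc itself had 286, 231 and 255 TPM. The sum of the whole list was highest in library 1 in TPM but in library 3 after TMM scaling. Of the 28 genes, 13 had a mean of at least 1 TPM.

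The defining regulators and alpl lay at the edge of detection. sp7, the osteoblast transcription factor whose promoter drives the line's fluorescent protein, had 4, 2 and 1 counts, or 0.116 CPM over the 3 libraries with an exact (Clopper-Pearson) 95% binomial interval of 0.0467 to 0.239 CPM. runx2b, a Runx2 factor of early osteoblasts, had 2, 2 and 6 counts, or 0.166 CPM (0.0795 to 0.305), and its copy runx2a had 4, 1 and 1 counts, or 0.0995 CPM (0.0365 to 0.217). alpl, the alkaline phosphatase of mineralizing cells, had 14, 3 and 2 counts, or 0.315 CPM (0.190 to 0.492). These intervals pool the counts of the 3 libraries and cover counting error only, not the spread among libraries. Levels this low could not be compared among libraries at this depth. sp7 ranked above 14.1% of all listed genes, and runx2b above 27.0%.

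Some products of bone cells were counted more often than these genes, and others were not. bglapl, an osteocalcin-like gene, had 480, 265 and 347 counts, or 37.0, 21.9 and 31.7 TPM, and bglap, an osteocalcin, had 22, 24 and 21 counts. The model of bglap shares 76.9% of its exon bases with another gene on its strand. spp1, osteopontin, had 27, 42 and 32 counts, and entpd5a, an enzyme needed for mineralization in zebrafish, had 10, 34 and 26 counts. phex, a peptidase of bone mineral control, had 161, 145 and 156 counts, and sost, an inhibitor of Wnt signalling made by osteocytes in mammals, had 117, 134 and 82 counts. Each of these genes was above 3 counts in each library. Other bone products on the list were as low as the regulators. panx3, ifitm5, fgf23 and scpp8 had 2 counts each over the 3 libraries together, scpp1 had 6 and phospho1, a phosphatase of mineralization, had 12, while the regulator dlx5a had 21.

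Type X collagen, which zebrafish osteoblasts make, differed more among libraries. col10a1a had 7.54, 14.2 and 18.2 TPM and col10a1b had 1.92, 7.71 and 6.05 TPM, both lowest in library 1 on both scales. Genes of enamel and scale matrix on the same list were near 0, with scpp7 at 1, 4 and 17 counts and scpp5 at 0, 1 and 10 counts. Of the osteoclast list (18 of 21 genes matched), ctsk, a collagen-degrading protease that fibroblasts also express, had 15.1, 21.1 and 20.1 TPM, and acp5a, a defining phosphatase of osteoclasts, had 19, 3 and 2 counts.

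The tendon and myoseptum list had a higher and more even sum among libraries than the bone list. With 34 of 38 genes matched, it summed to 627, 623 and 645 TPM, a mean of 632 ± 11.2 (SD, n = 3). postnb, the matrix protein periostin, led with 146, 133 and 153 TPM, followed by xirp2a, an actin-binding repeat protein of muscle and the myotendinous junction, with 56.7, 56.7 and 67.3 TPM, and dcn, the collagen-fibril proteoglycan decorin, with 58.4, 53.5 and 53.4 TPM. xirp2a is also a muscle gene, so it does not mark tendon cells alone. scxa, the transcription factor scleraxis that defines tendon cells, had 415, 438 and 213 counts, or 25.3, 28.6 and 15.4 TPM, and was lowest in library 3 on both scales. Its copy scxb had 9, 6 and 1 counts. tnmd, tenomodulin, a membrane protein of mature tendon cells, was even at 11.5, 10.6 and 11.7 TPM.

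The Mohawk homeobox genes of tendon were lower, with mkxa at 91, 98 and 61 counts and mkxb at 52, 46 and 56 counts. thbs4b, a thrombospondin that organizes the muscle attachment matrix in zebrafish, had 39.8, 57.0 and 38.8 TPM, and thbs4a had 12.1, 24.7 and 22.1 TPM. scxa, at 17.7 CPM over the 3 libraries pooled (16.6 to 18.8), was counted far more often than sp7, with 1066 against 7 counts in all. This interval covers counting error only and not the spread among libraries, in which scxa had 415, 438 and 213 counts.

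**Figure D3:**
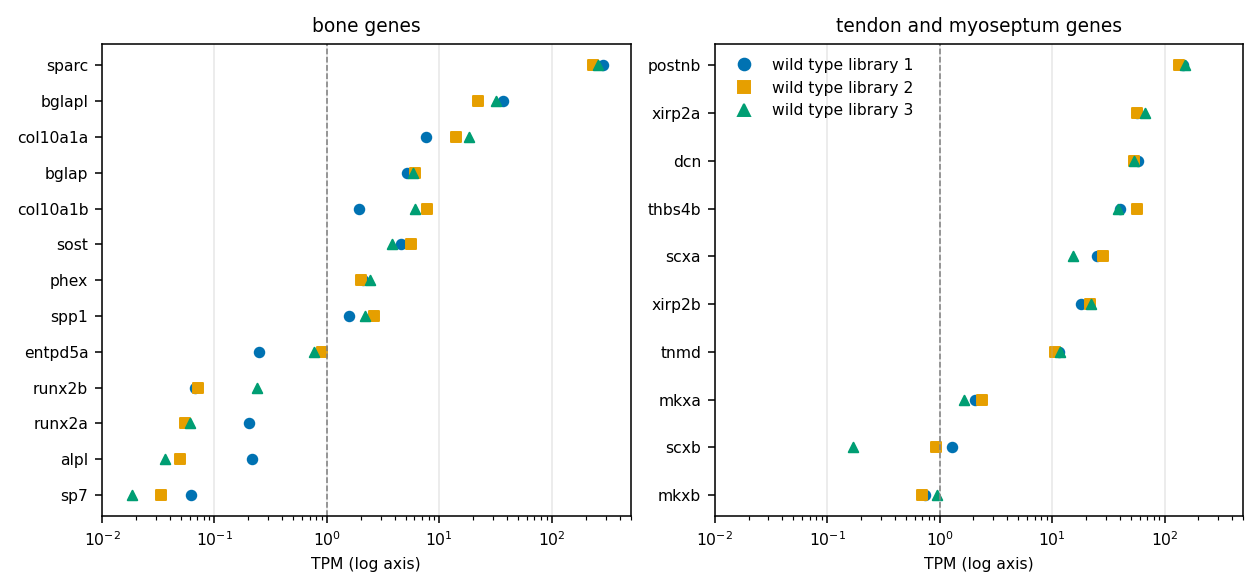
TPM (log axis) of bone genes on the left and tendon and myoseptum genes on the right, with 1 point per wild type library and a dashed line at 1 TPM. runx2a, runx2b, sp7 and alpl lie below 1 TPM in each library, while scxa, tnmd, xirp2a, dcn and postnb lie above 10 TPM in each.

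Type I collagen, the main collagen of bone, tendon and dermis, had an alpha1 to alpha2 ratio of 2.28, 2.17 and 2.23 in TPM, with col1a1a and col1a1b summed over col1a2. col1a1b had 609, 479 and 625 TPM, col1a1a had 476, 397 and 494 TPM, and col1a2 had 475, 404 and 502 TPM. Library 2 was the lowest in each, also after TMM scaling. In type VI collagen, which surrounds muscle fibres, col6a1 held 54.4% ± 1.34, col6a2 26.4% ± 2.13 and col6a3 18.8% ± 1.63 of TPM (SD, n = 3 each).

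Cartilage-type genes were led by ucmaa, a matrix protein known from cartilage, with 106, 139 and 130 TPM, followed by col11a1b with 63.4, 53.9 and 70.8 TPM and col2a1b with 54.1, 54.1 and 65.8 TPM. These 3 genes held 78.4% ± 2.66 of the chondrocyte list (SD, n = 3). The defining cartilage genes col2a1a and acana had only 6, 9 and 5 counts and 1, 9 and 2 counts, and matn3a and matn3b had no count, so the sum of this list rests on other genes than these.

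Marker lists of other cells ranged widely in sum. Adipocyte genes summed to 1208, 1084 and 998 TPM and were led by fabp11a, a fatty acid carrier, with 1011, 944 and 891 TPM. fabp11a alone thus made up a mean of 949 of the list's 1096 TPM. adipoqb, an adiponectin, had 96.2, 47.1 and 30.6 TPM. Of the 6 adipocyte genes past the filter, 3 were highest in library 1 and 3 in library 3 in TPM, against 1769 and 1013 of all 4558 genes. Red cell genes summed to 1997, 2198 and 1714 TPM, more than the tendon or the bone list, and were led by the adult globins hbba1, at 1032, 1185 and 1008 TPM, and hbaa1, at 597, 718 and 435 TPM. Myelin genes gave 290, 301 and 310 TPM, led by mbpa with 91.2, 106 and 97.2 TPM. Macrophage genes summed to 215, 332 and 223 TPM, led by cd74a with 97.6, 133 and 70.7 TPM. The list of neurons and motor axons summed to 10.8, 14.7 and 10.1 TPM, and the lymphocyte and pigment cell lists also stayed under 15 TPM in each library.

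Blood vessel endothelial genes summed to 86.4, 99.7 and 86.0 TPM, and kdrl, a receptor for vascular growth factor, had 490, 508 and 464 counts. Smooth muscle and pericyte genes summed to 125, 139 and 130 TPM, led by tagln, an actin-binding protein, with 35.6, 41.2 and 38.4 TPM. Neuromuscular junction genes summed to 81.3, 70.7 and 74.1 TPM, led by rapsn, which anchors acetylcholine receptors, with 315, 261 and 306 counts, and chrne, a subunit of the adult receptor, with 17.6, 14.7 and 15.2 TPM. chrnd, another receptor subunit, had 12.0, 7.05 and 5.84 TPM. It was the 1 of 5 junction genes past the filter that reached 2-fold in TPM, against 11.1% of all genes. It did not reach 2-fold after TMM scaling. The liver list gave 86.2, 144 and 120 TPM, of which rbp4, a retinol carrier that other tissues also make, had 78.7, 137 and 111 TPM. fabp10a, a defining liver gene, had 31, 16 and 11 counts. Neutrophil genes summed to 29.8, 60.4 and 43.2 TPM, with library 2 the highest on both scales.

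Spread among the libraries was mostly modest and larger than counting error. Over the 4558 genes of at least 5 TPM and 50 counts in the highest library, the median CV among the 3 libraries was 16.2%, against a median of 5.31% from counting alone. The median ratio of the highest to the lowest library was 1.37. At least 2-fold between the highest and the lowest library was reached by 505 of these genes (11.1%), at least 5-fold by 69 and at least 10-fold by 31. With TMM-scaled library sizes 467 (10.2%) reached 2-fold, and 427 were the same genes. In TPM the 505 were highest in libraries 1, 2 and 3 for 177, 162 and 166 genes, and lowest for 238, 43 and 224. Library 2 thus lay between the others for most. After TMM scaling, library 3 was at least 2-fold over both others for 90 genes, against 16 for library 1 and 11 for library 2.

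**Figure D4:**
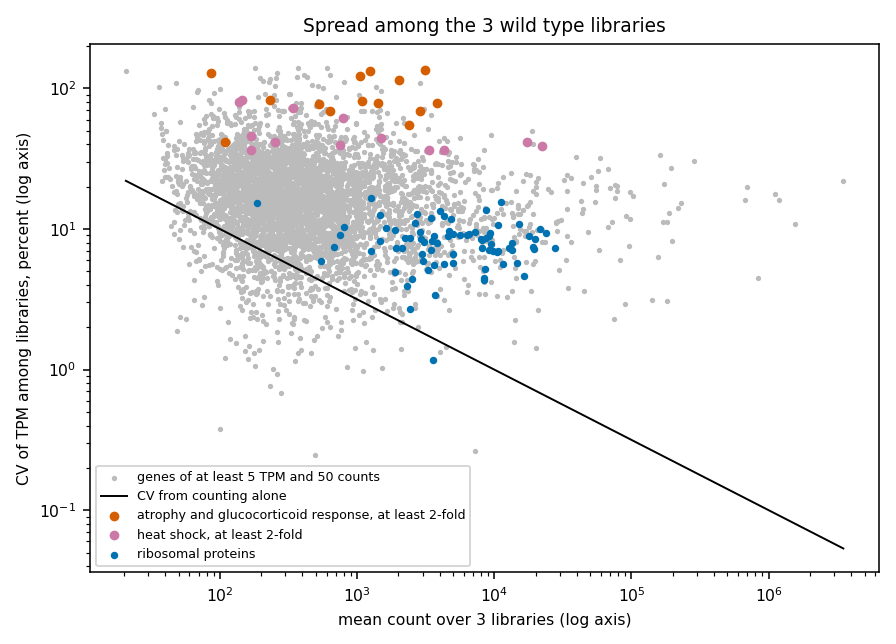
CV of TPM among the 3 wild type libraries (log axis) against the mean count (log axis) for the 4558 genes that passed the level filter, with the CV that counting alone gives as a line. Most genes lie above the line and ribosomal protein genes form a low band. Members of the atrophy and glucocorticoid list and of the heat shock list are marked only where they reached 2-fold. Their high place in the plot was fixed by that choice.

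The 25 named genes with the largest ratio were dominated by 1 pattern. In 20 of the 25 library 3 was the highest and library 1 the lowest, in TPM and after TMM scaling. Of the 505 genes of at least 2-fold in TPM, 166 were highest in library 3 and 238 lowest in library 1. Of all 4558 genes past the filter, 1013 were highest in library 3 and 1697 lowest in library 1 in TPM. Both together were not counted over the 505 or the 4558 genes, so the 20 have no such share beside them. The level filter uses the mean and the highest library, so a gene low elsewhere can pass through 1 high library. Such a gene must have a large ratio, so the filter itself adds to the number of genes with large ratios. cyp24a1 below is an example. cyp24a1, the enzyme that breaks down vitamin D, had 0.102, 2.77 and 18.6 TPM from 3, 76 and 462 counts. klhl38b, a Kelch-like gene of muscle, had 0.417, 6.84 and 47.0 TPM. It lies on chromosome 16, from 25330825 to 25335382, beside fbxo32, from 25344281 to 25357601. fbxo32 encodes atrogin-1, the muscle ubiquitin ligase subunit known from wasting muscle, and had 3.28, 29.6 and 176 TPM.

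Of the 25 genes, 5 are on the list of muscle wasting and glucocorticoid response, namely fbxo32, fkbp5, klf9, pdk2b and sesn1, and nr1d2a is on the clock list. The first list has 21 members among the 4558 genes past the filter, and the clock list has 7. Both lists were chosen with earlier results of these data known. klf9, and ucp3 named below, were under 5 TPM in libraries 1 and 2 and passed the filter only through library 3. Their large ratios were therefore needed to pass. fkbp5, a chaperone partner of the glucocorticoid receptor, had 3.46, 16.4 and 79.7 TPM, klf9, a zinc finger factor, had 11, 39 and 207 counts, and cebpd, a bZIP transcription factor, had 24.7, 156 and 503 TPM. pdk2b, a kinase that shuts off pyruvate entry into the mitochondrion, had 14.1, 46.7 and 340 TPM. ucp3, a mitochondrial carrier, had 2.43, 4.01 and 25.5 TPM, and nr1d2a, a Rev-erb receptor of the circadian clock, had 1.93, 8.77 and 27.3 TPM. In each of these genes the 3 libraries kept the same order and library 3 stood well apart from library 1.

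sesn1, an inhibitor of growth signalling, had 8.34, 19.8 and 94.9 TPM and armc2 had 3.12, 6.91 and 31.5 TPM. Their models overlap on opposite strands over 52.9% of the exon bases of sesn1, so their reads may not be told apart. klf11b, arrdc2, cdkn1d, nupr1, nfe2l1a, TMEM100, socs3a and bada shared the pattern, with ratios of 9.39 for bada to 39.5 for klf11b. Of these, cdkn1d, nfe2l1a, socs3a and bada were below 5 TPM in libraries 1 and 2 and passed the filter only through library 3. Their large ratios were therefore needed to pass. krt5, a keratin of the basal epidermis, had 6.82, 37.3 and 81.1 TPM. It stood among 4 varying members of the epidermis list, with krt15, krt17 and cyt1, out of 11 that passed the filter, against 11.1% of all genes. After TMM scaling there were 5 of 11, against 10.2% of all genes. The epidermis list summed to 577, 966 and 1105 TPM, and the part of skin in these values was not tested.

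**Figure D5:**
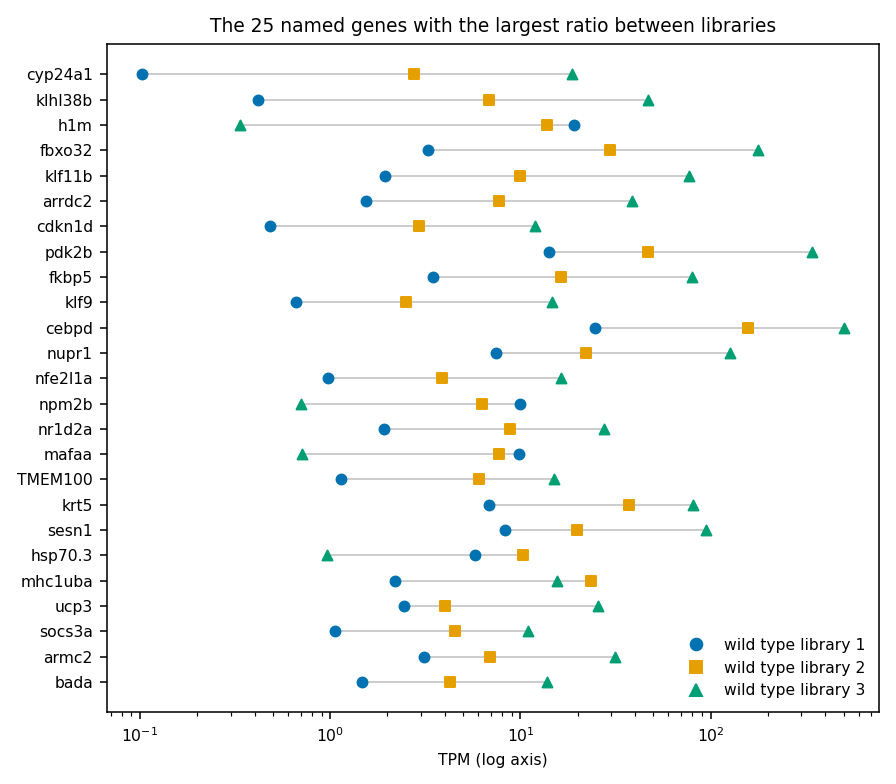
TPM (log axis) of the 25 named genes with the largest ratio of the highest to the lowest wild type library, with 1 point per library. Library 3 is the highest and library 1 the lowest in 20 of the 25, and h1m, npm2b and mafaa run the other way.

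Among the genes of muscle wasting and glucocorticoid response, 14 of the 21 that passed the filter differed by at least 2-fold, against 11.1% of all genes. After TMM scaling there were again 14. This list was chosen with earlier results of these data known, so its share of variable genes is no independent evidence. The 21 also include klf9, which passed the filter only through library 3 and so needed a large ratio to pass. The list (30 of 32 genes matched) summed to 581, 791 and 2078 TPM, and the median ratio of its members was 3.69, against 1.37 over all genes. trim63a and trim63b, which encode the muscle ubiquitin ligase MuRF1, had 53.7, 47.7 and 176 TPM and 116, 109 and 335 TPM. tsc22d3, a glucocorticoid-induced leucine zipper protein, had 23.0, 46.5 and 123 TPM, and ddit4, an inhibitor of growth signalling, had 13.1, 39.2 and 68.6 TPM. For trim63a and trim63b only library 3 stood apart. The glucocorticoid receptor gene nr3c1 was level at 5.05, 5.03 and 4.90 TPM. foxo3b, a transcription factor of wasting genes, had 17.5, 14.7 and 13.8 TPM, and pdk4 ran the other way, with 22.7, 16.4 and 13.0 TPM.

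Heat shock genes varied in another order. Of 24 that passed the filter, 13 differed by at least 2-fold in TPM, against 11.1% of all genes, and 8 after TMM scaling, against 10.2%. The list summed to 3070, 4055 and 2790 TPM. Of the 24, 15 were highest in library 2 after TMM scaling and 17 in TPM, against 1776 of all 4558 genes in TPM. hsp70.1, hsp70.2, hsp70.3 and hsp70l, the inducible chaperones, summed to 29.9, 47.5 and 6.05 TPM. Their sum was lowest in library 3, and hsp70.3 had 5.78, 10.3 and 0.966 TPM. Reads of these near-identical copies may be shared. serpinh1b, the collagen chaperone of the endoplasmic reticulum, had 29.5, 22.4 and 6.16 TPM, and hspa5, the general chaperone there, had 58.3, 56.0 and 22.2 TPM. hsp90aa1.1, which folds myosin in fish muscle, had 629, 1073 and 529 TPM, with a model that overlaps hsp90aa1.2 over 51.8% of its exon bases. Immediate early genes, which are known to respond within minutes to many stimuli, had 7 of 10 members past 2-fold on both scales, against 11.1% of all genes in TPM and 10.2% after TMM scaling. nr4a1 had 4.02, 6.75 and 15.5 TPM, egr1 had 3.15, 5.34 and 15.5 TPM and socs3a had 1.06, 4.53 and 10.9 TPM. socs3a was below 5 TPM in libraries 1 and 2 and passed the filter only through library 3, so its large ratio was needed to pass.

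Proteasome genes differed together within a narrow range. Of 33 that passed the filter, 30 were highest in library 2 in TPM, against 1776 of all 4558 genes, and 29 after TMM scaling. Only 1 of the 33 reached 2-fold in TPM, against 11.1% of all genes. The list of muscle stem cells and myoblasts summed to 123, 119 and 77.2 TPM. Of all 4558 genes past the filter, 2112 were lowest and 1013 highest in library 3 in TPM. Of the 9 list members past the filter, 7 were lowest there in TPM, 1 was highest there in TPM and 2 after TMM scaling. The 3 that reached 2-fold, against 11.1% of all genes, were myod1, meox1 and myog. myod1, the master regulator of muscle fate, had 8.38, 14.3 and 3.10 TPM, meox1, a homeobox gene of fish muscle growth, had 9.11, 10.1 and 2.69 TPM, and myog, which overlaps an antisense gene, had 8.39, 8.27 and 1.76 TPM. pcna, a DNA replication clamp on the list of proliferating cells, had 16.9, 16.4 and 7.01 TPM. That list summed to 73.3, 61.4 and 41.8 TPM. It had 2 members past the filter, of which pcna was highest in library 1 and 1 was highest in library 3, on both scales.

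Germ cell transcripts were counted mainly in libraries 1 and 2. The oocyte and germ cell list summed to 71.2, 37.1 and 0.771 TPM, and 21 of its 26 genes had no count in library 3, against 1 of 26 in library 1 and 1 of 26 in library 2. Of all 25279 listed genes, 21520, 21811 and 20857 had a count in libraries 1, 2 and 3, so library 3 had the fewest. h1m, a linker histone of the egg and early embryo, had 337, 226 and 5 counts. buc, which organizes the germ plasm, had 145, 62 and 1 counts, and zp2.5, an egg coat protein, had 100, 33 and 0 counts. ddx4, the germ cell helicase Vasa, had 46, 7 and 0 counts. npm2b, an egg histone chaperone that is not on the list, had 152, 89 and 9 counts, and mafaa, a bZIP transcription factor, had 655, 481 and 40 counts. ccnb1, a mitotic cyclin that eggs also store, had 77, 36 and 0 counts. In library 3, 3 counts correspond to 0.151 CPM, which is the level a count of 0 still allows. The part of ovary tissue in these values was not tested.

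Yolk protein genes did not follow that pattern. Their list summed to 11.5, 11.8 and 11.2 TPM, and vtg1, the leading vitellogenin, had 264, 253 and 163 counts, though these genes overlap one another in the table. The summed levels of slow-fibre, myoblast and germ cell genes were each higher in library 1 than in library 3, and those of fast-fibre, wasting and epidermal genes each lower, so these differences run over the same 3 libraries and their parts cannot be told apart.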

How the data were processed

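Whole-number counts of reads for each gene were deposited in 1 table, neither normalized nor pooled, per the file headers and values, with chromosome, exon starts and ends, strand and length. Cell Ranger and GRCz11 stand in the submitters' processing notes, with no role given for either. The aligner, the counter and the strand setting are not given in the sources used here, so positions are printed as the table gives them, and near-identical, overlapping and antisense genes are uncertain. The table had 0 value columns that could not be matched to a sample.

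Each count was divided by the gene's length and scaled to TPM over all 25279 genes, with Python 3.11.15, numpy 2.4.6 and pandas 2.3.3. TMM factors and DESeq2 size factors came from edgeR 4.0.16 and DESeq2 1.42.0 in R 4.3.3. No test was made, since there is 1 group of 3 libraries. Values are given per library or as mean ± SD. Intervals on shares of counts are exact binomial (Clopper-Pearson) at 95%, on counts pooled over the 3 libraries. Exon overlap was computed with bedtools 2.31.1 and figures with matplotlib 3.10.9. The ratio step was run on simulated counts as a check of its code. These were simulated with less spread among libraries than was estimated from the 3 real ones. The check therefore cannot show how many unchanged genes would reach the ratio threshold in these data.

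Named genes were the 20 most abundant, family members of at least 5% of TPM, the most abundant, most equal and most shifting a/b pairs, the defining bone and tendon genes, the 3 leading genes of each cell type list and the 25 most variable genes with a proper symbol (9 clone-like or automatic symbols were passed over). Other list members were named after their values were seen. Members and gene lists were chosen with earlier results of these data known. Alternatives were effective length, counts in place of TPM, nuclear genes only, other thresholds and leaving out each library.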

Additional observations from a re-analysis of the deposited data

How the results depend on the processing

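The share of the 10 most abundant genes, 41.5% of TPM, was 43.7% with an effective length and 51.4% of counts. The sarcomere share, 33.6%, was 57.5% of counts and 45.5% of nuclear TPM, the mitochondrial share, 26.3%, was 6.15% of counts, and the share of myhc4, 68.2%, was 61.6% of counts. The summed bone list, 334 TPM, was 302 TPM with an effective length, 447 CPM from counts and 455 TPM over nuclear genes, and the tendon list, 632 TPM, was 541, 1807 and 859 on the same scales. The 224 one-sided pairs became 558 with pairs of at least 1 TPM and 126 with lengths that differ by less than 1.5 times, out of 1779 and 400 pairs, so that the share of 33.7% became 31.4% and 31.5%.

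The 505 genes of 2-fold became 1290 with a mean of at least 1 TPM, 7230 with no filter and 0.1 TPM added, and 160 at 3-fold. With TPM divided by TMM factors there were 535, by DESeq2 size factors 552, and with TMM-scaled library sizes, chosen after seeing the data, 467. Leaving out 1 library gave 183 (without library 3) to 362 (without library 2) genes, and 203 without library 1. A library was also left out for 8 other results, namely the shares and summed lists above, the genes at 1 TPM or more in each library and the one-sided pairs. They stayed within 1 SD, or for counts within 1.5 times. For the shares and sums this was fixed in advance, since leaving out 1 of 3 libraries cannot move a mean by 1 SD. The number of genes at 1 TPM or more in each library cannot fall when a library is left out. Counts within gene lists were not recomputed this way. No paired analysis was possible because only the wild type group is described.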
